A study of Mus musculus with 8 samples.

Results

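The keratin windows are 2 stretches of the mouse mm9 assembly in which hotspots of the chromatin remodelers Brg1, CHD4 and Snf2h were collected, with no use of their heights. The type I window is chr11:99000000-100300000, 1.3 Mb long, and the type II window is chr15:101000000-102000000, 1.0 Mb long. A hotspot is an interval that the authors called as enriched for sequence tags, and a hotspot was a member when its start lay in a window. The 6 deposited lists together held 987 such hotspots of 820608, with 488 in the type I window and 499 in the type II window. Hotspots that overlapped by at least 1 bp were merged into 484 regions of 532751 in the genome, 263 in the type I window and 221 in the type II window. Each region was classed by the antibodies whose hotspots it held.

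Keratins are the intermediate filament proteins of epithelial cells, and each filament pairs a type I with a type II chain. Their genes lie in tandem clusters, and most are switched on only in certain epithelia, hair or nail. In the mammary gland Krt8, Krt18 and Krt19 mark luminal cells, and Krt5, Krt14 and Krt17 mark basal cells. Brg1 is the ATPase of SWI/SNF complexes, CHD4 that of NuRD and Snf2h that of ISWI complexes. All of them use ATP to slide, evict or space nucleosomes, and NuRD also carries histone deacetylases.

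Both windows were set by coordinates, and no mm9 annotation was used here, so no hotspot is assigned to a gene and the share of each window that keratin genes fill was not measured. On another assembly, GRCm38.p6, the RefSeq gene order gives the content of the clusters. On chromosome 11 the type I cluster runs from Krt222 to Krt42 with 27 keratin genes and 23 Krtap genes, which encode keratin-associated proteins of hair. Its neighbours are Smarce1, which encodes a SWI/SNF subunit, and Eif1, a translation initiation factor gene. On chromosome 15 the type II cluster runs from Krt80 to Krt18 with 26 keratin genes, and Krt18, itself a type I gene, sits beside its partner Krt8 at the end next to Eif4b.

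Chromatin immunoprecipitation sequencing was done in untreated cells of the 3134 line, a murine mammary epithelial line, with antibodies to CHD4 and Snf2h and a monoclonal Brg1 antibody. Each antibody had 2 libraries, replicates 1 and 2, and 2 DNA input libraries were not analysed here. No label says that replicates are separate cultures, so spread between libraries may be technical. All 3 groups are one cell line in one condition, so the comparisons below are between places in the genome and between antibodies. Lists held from 32310 hotspots (Snf2h replicate 1) to 293135 (CHD4 replicate 2), and read depth per library is unknown. The Z score, the authors' score of enrichment, reached down to 2.00 in the second Brg1 and CHD4 lists, called the low-threshold lists below, and to between 8.50 and 9.49 in the other 4 lists. For that reason each density and height below was set against the same library's own list.

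The first comparison asked whether the keratin windows held more remodeler hotspots than the rest of the genome. Brg1 had 68 hotspots in the type I window in replicate 1 and 157 in replicate 2, which is 52.3 and 121 per Mb against 44.8 and 101 per Mb in the rest of the genome. CHD4 had 36 and 145, or 27.7 and 112 per Mb, against 15.4 and 114 per Mb. Snf2h had 22 and 60, or 16.9 and 46.2 per Mb, against 12.5 and 31.0 per Mb. The type I window was thus above the rest of the genome in 5 of 6 libraries, and CHD4 replicate 2 lay slightly below it. In the type II window Brg1 had 81 and 141 hotspots per Mb, CHD4 43 and 147, and Snf2h 26 and 61. These exceeded the rest of the genome in all 6 libraries.

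On the log2 scale, the density in the type I window over the rest of the genome was 0.23 and 0.26 for Brg1, with 0.84 and -0.03 for CHD4 and 0.43 and 0.57 for Snf2h. The type II values were 0.86 and 0.48, 1.48 and 0.37, and 1.05 and 0.98. For both windows the 2 CHD4 libraries were the highest and the lowest of the 6, so the libraries of this antibody spread more than the antibodies did. The mean was 0.38 ± 0.30 (SD, n = 6 libraries) for type I, which did not pass an exact two-sided sign-flip permutation test (p = 0.0625, adjusted p = 0.0625 by Benjamini-Hochberg over 6 such tests). For type II it was 0.87 ± 0.40, a 1.83-fold density, with an exact permutation p of 0.03125, the smallest that 6 libraries allow (adjusted p = 0.0375). Type I was below type II in 6 of 6 libraries, by 0.48 ± 0.17 on the log2 scale (type I minus type II -0.48, exact permutation p = 0.03125, adjusted p = 0.0375). The sign-flip tests, here and below, ask whether the libraries share a direction at a fixed window. Those libraries are of different antibodies in one cell line. How unusual such a window is among other windows of the genome was not tested.

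The type I result moved with the choice of list and background. Held to hotspots with a Z score of at least 9.49 in every list, the type I mean was 0.69 (adjusted exact permutation p = 0.03125), and with the 32310 tallest hotspots of each list it was 1.04 (adjusted p = 0.0375). The type II mean with lists of that equal size was 1.87 (adjusted exact permutation p = 0.0375). A cut to the tallest hotspots favours places with tall hotspots, as both windows were, so it is no independent check of density. Against the rest of chromosome 11 the type I mean was 0.09 (adjusted exact permutation p = 0.25), and against the rest of chromosome 15 the type II mean was 0.76 (adjusted p = 0.046875).

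**Figure D1:**
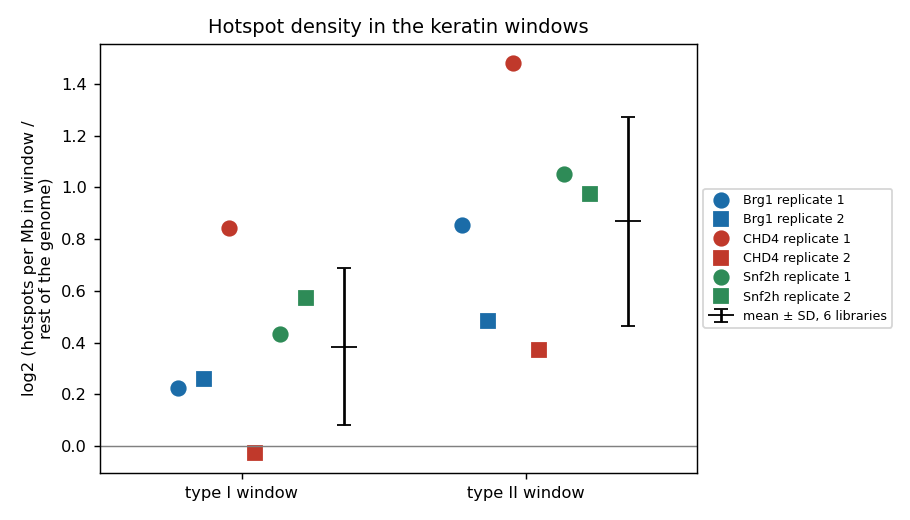
Log2 ratio of hotspots per Mb in each keratin window to hotspots per Mb in the rest of the genome, one point per library, with the mean and SD over the 6 libraries beside them. All type II points lie above 0 and the type I point of CHD4 replicate 2 lies at -0.03.

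The surroundings of the type I window were denser in hotspots than the window itself. The 5 Mb before it held 82.8 and 133 hotspots per Mb for Brg1, with 47.6 and 150 for CHD4 and 28.4 and 70.6 for Snf2h. The 5 Mb after it held 71.8 and 124, 36.6 and 140, and 22.6 and 58.4. In all 6 libraries the type I window was below both flanks. The type II window had no such order, since it exceeded both flanks for Brg1 and for CHD4 replicate 1 and lay between them in the other 3 libraries. The stretch after the type II window was 1.49 Mb long, to the last hotspot of chromosome 15. These flanks were chosen after seeing the data and were not tested.

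The second comparison asked whether hotspots in the windows were tall. Height is the maximum tag density that the authors give for a hotspot, a signal whose scaling is not stated, so it was turned into a percentile within its own list. The median percentile of type I hotspots was 76.0 and 74.1 for Brg1, with 68.9 and 71.8 for CHD4 and 70.2 and 68.3 for Snf2h. The type II medians were 84.6 and 79.5, 85.7 and 83.2, and 86.9 and 84.1. In the rest of the lists the medians were between 48.9 and 51.5, so the median hotspot was taller in both windows in every library. The type II medians lay above all type I medians. Low hotspots made up a smaller part of the window hotspots, most of all outside the low-threshold lists, which by itself raises these medians. What made low hotspots scarce there was not tested. The difference from the rest of the list was 21.7 ± 2.61 percentile points for type I and 34.1 ± 3.42 for type II (SD, n = 6 libraries). Type I lay 12.4 ± 4.77 points below type II (type I minus type II -12.4). Each of these passed the exact sign-flip permutation test at p = 0.03125 (adjusted p = 0.0375) and had the same direction in 6 of 6 libraries.

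The Z scores of the same hotspots did not stand out in this way. Their median percentile was from 42.0 to 66.4 in the type I window and from 48.5 to 69.0 in the type II window. Ranked by Z score, the difference from the rest of the list was 5.91 points for type I (adjusted exact permutation p = 0.2625), 10.2 for type II (adjusted p = 0.09375) and -4.24 for type I minus type II (adjusted p = 0.40625). Among the 500 hotspots just below and the 500 just above it in density in its own list, a hotspot in the keratin windows tended to have a low Z score. The median Z percentile among such neighbours was from 23.8 to 42.05 across libraries in the type I window and from 6.50 to 16.9 in the type II window. At a given maximum density, hotspots in the windows thus tended to have a lower enrichment score than hotspots elsewhere, in the type II window above all. What sets this gap between density and Z score was not tested.

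Tall hotspots of moderate Z score were also found outside the windows. In the flanks, the median height percentile was from 67.7 to 87.5 on chromosome 11 and from 70.5 to 83.2 on chromosome 15, and the median Z percentile was from 47.7 to 73.5 and from 47.9 to 66.4. Against the rest of chromosome 11, type I hotspots were 3.30 points taller, which did not pass (adjusted exact permutation p = 0.25). With the 32310 tallest hotspots of each list the type I difference was 8.36 points (adjusted exact permutation p = 0.0625). Against the rest of chromosome 15, type II hotspots were 25.2 points taller (adjusted exact permutation p = 0.046875).

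**Figure D2:**
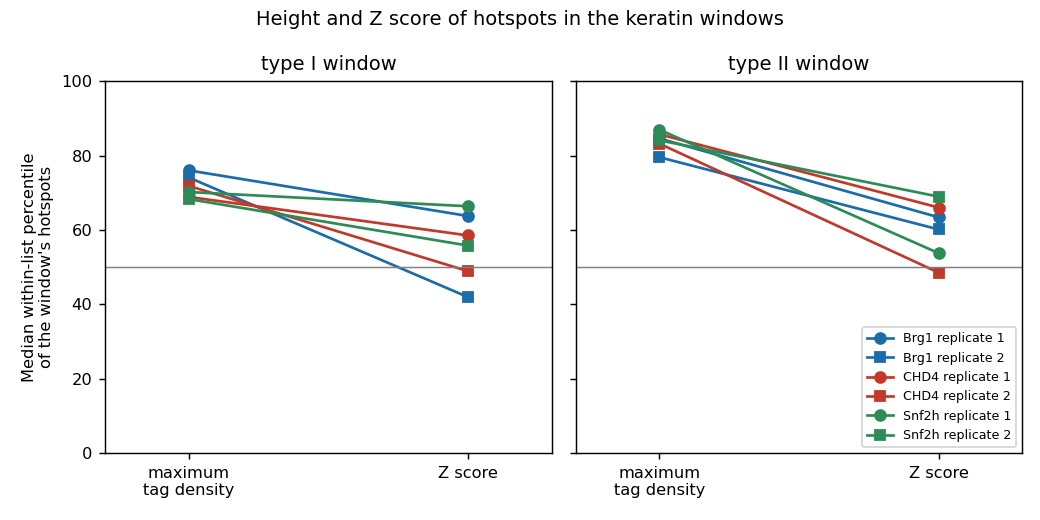
Median within-list percentile of maximum tag density and of Z score for the hotspots of each keratin window, one line per library, with the horizontal line at the 50th percentile. Density percentiles lie between 68.3 and 86.9 in all libraries, and Z score percentiles lie between 42.0 and 69.0.

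The tallest hotspot of Brg1 replicate 1 in the type I window had a maximum density of 214, at chr11:99916946-99918100, where Brg1 replicate 2 had 113, the CHD4 libraries 27.0 and 23.5 and Snf2h replicate 2 had 37.6, with no hotspot of Snf2h replicate 1. The tallest of that library in the type II window reached 281, at chr15:101835154-101836579, where Brg1 replicate 2 had 89.8 and the CHD4 libraries 20.8 and 17.5, with no Snf2h hotspot. Within their own lists the type I region stood at percentiles 99.8 and 99.9 for Brg1, 87.5 and 99.2 for CHD4 and 93.3 for Snf2h replicate 2. The type II region stood at 99.96 and 99.7 for Brg1 and at 75.97 and 97.98 for CHD4. Both regions were thus near the top of both Brg1 lists and of the CHD4 replicate 2 list, and Snf2h was partly or wholly without a hotspot.

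The third comparison asked which remodelers shared a region. In the type I window Brg1 had a hotspot of either library in 172 of 263 regions, against 58.3% of all merged regions in the genome, CHD4 in 146 (54.3% of all) and Snf2h in 58 (16.4% of all). In the type II window the counts were 153, 140 and 55 of 221. As shares these were 65.4%, 55.5% and 22.1% in the type I window and 69.2%, 63.3% and 24.9% in the type II window, so CHD4 in type I was near its background. Held to regions with both libraries of an antibody, called replicated below, the type I window had 46 Brg1 (17.5%), 30 CHD4 (11.4%) and 20 Snf2h regions (7.60%). The type II window had 57 (25.8%), 35 (15.8%) and 22 (9.95%). Over all merged regions the replicated shares were 9.60% for Brg1, 5.65% for CHD4 and 3.39% for Snf2h, and each window exceeded them for each remodeler. These shares, and those of shared regions below, were not compared with the windows' own chromosomes, against which type I density and height had not passed.

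Regions with 2 or more remodelers numbered 76 in the type I window (28.9%, 95% Wilson interval 23.8% to 34.6%) and 82 in the type II window (37.1%, 31.0% to 43.6%), against 21.5% of all regions. All 3 remodelers, in either library, met in 37 type I regions (14.1%, 10.4% to 18.8%) and 45 type II regions (20.4%, 15.6% to 26.2%), against 7.42% of all. A hotspot of all 6 lists marked 10 type I regions (3.80%, 2.08% to 6.86%) and 15 type II regions (6.79%, 4.16% to 10.9%), against 1.96% of all. The intervals cover counting error only, and neighbouring regions are not independent. Over both windows together, 82 regions (16.9%, 13.9% to 20.5%) held all 3 remodelers, against 7.41% in the rest of the genome. For all 6 lists it was 25 regions (5.17%, 3.52% to 7.51%) against 1.96%.

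How many remodelers a region held moved with the lists. Without Snf2h replicate 2 the share with all 3 remodelers was 8.03% in the windows and 3.51% in the rest of the genome, with 16 type I and 22 type II regions. Without Snf2h replicate 1, so that a single Snf2h library sufficed, the replicated share was 10.3% against 3.72%. With the 32310 tallest hotspots of each list, 44.6% of the window regions and 28.1% of the others held all 3 remodelers. The windows stayed above the rest of the genome in each of these settings, the last of which favours places with tall hotspots.

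**Figure D3:**
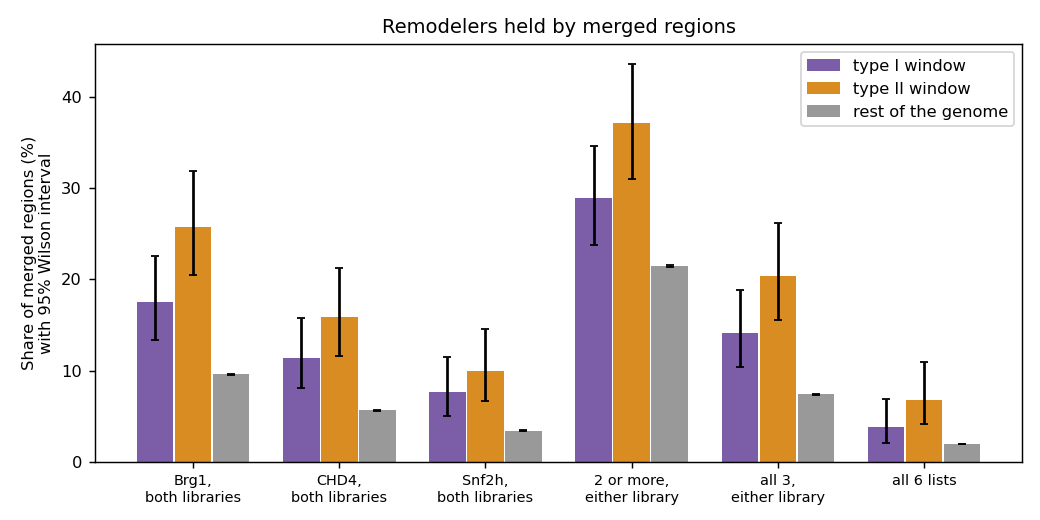
Share of merged regions that held the named remodelers, for the type I window, the type II window and the rest of the genome, with 95% Wilson intervals that cover counting error only. Each pair of window bars exceeds the bar for the rest of the genome, with 14.1% and 20.4% against 7.41% for all 3 remodelers.

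Most regions still came from a single list, 180 in the type I window (68.4%) and 133 in the type II window (60.2%), against 76.6% of all merged regions. Brg1 replicate 2 gave 78 and 50 of them, CHD4 replicate 2 gave 77 and 63, Brg1 replicate 1 gave 17 and 16, and Snf2h replicate 2 gave 8 and 4. No region rested on CHD4 replicate 1 or Snf2h replicate 1 alone. Single-list regions thus came mostly from the 2 lists whose lowest Z score was 2.00. With those 2 lists left out, an alternative chosen after seeing the data, 95 type I and 105 type II regions were left.

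Counting a hotspot of either library, most Snf2h regions were shared. Of the 58 type I and 55 type II regions with Snf2h, 44 (75.9%) and 50 (90.9%) also held Brg1, against 54.4% in the rest of the genome. CHD4 was present in 42 (72.4%) and 46 (83.6%) of them, against 52.6%. Of the regions with replicated CHD4, 26 of 30 in the type I window (86.7%) and 33 of 35 in the type II window (94.3%) also held replicated Brg1, against 77.8% in the rest of the genome. The type I Wilson interval, 70.3% to 94.7%, spans the outside share, and the type II interval, 81.4% to 98.4%, does not. Of the regions with replicated Snf2h, 12 of 20 in the type I window (60.0%, 95% Wilson interval 38.7% to 78.1%) and 18 of 22 in the type II window (81.8%, 61.5% to 92.7%) held replicated Brg1, against 69.7% in the rest of the genome. Replicated CHD4 was present in 12 (60.0%) and 16 (72.7%) of them, against 69.4%. Under the replicated rule, the type I Snf2h shares were thus below those of the rest of the genome, which lay within the counting intervals of both windows. In the other direction, replicated CHD4 was found in 56.5% and 57.9% of the replicated Brg1 regions, against 45.7% in the rest of the genome. Both Wilson intervals, 42.2% to 69.8% and 45.0% to 69.8%, span that outside share. Overlaps depend on list length, and Brg1 had more hotspots than Snf2h in every pair of libraries.

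Regions also widened with the number of remodelers, which merging itself favours. Over both windows, regions of a single remodeler had median widths of 344 bp (Brg1), 344 bp (CHD4) and 296 bp (Snf2h). It was 597.5 bp for Brg1 with CHD4 and 987 bp for all 3 remodelers, against 1063 bp for all 3 in the rest of the genome. The broadest region, chr15:101930064-101935148, was 5085 bp wide and held hotspots of all 6 lists. The tallest hotspots in its span had densities of 118 and 36.1 for Brg1, with 25.7 and 20.01 for CHD4 and 29.8 and 65.0 for Snf2h.

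The overlap of replicates was also compared inside and outside the windows. Of the hotspots of Brg1 replicate 1, 73.5% in the type I window and 79.0% in the type II window overlapped a hotspot of replicate 2, against 49.7% in the rest of the genome. For Snf2h replicate 1 the shares were 90.9% and 92.3% against 58.6%. For CHD4 replicate 1 they were 86.1% and 97.7% against 83.3%, and the type I Wilson interval, 71.3% to 93.9%, spans the outside value. The Brg1 and Snf2h intervals did not reach the outside share, with lower bounds of 62.0% and 68.9% for Brg1 and 72.2% and 75.9% for Snf2h. In the other direction, the share of replicate 2 hotspots overlapped by replicate 1 was 29.9% and 41.8% for Brg1 (against 20.3%) and 21.4% and 25.9% for CHD4 (against 10.8%). For Snf2h replicate 2 it was 33.3% and 36.1% against 23.0%, and the type I interval, 22.7% to 45.9%, spans the outside share. All window shares in both directions were above the outside share, and those of CHD4 replicate 1 and Snf2h replicate 2 in type I did not exceed it beyond counting error.

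The 25 regions with a hotspot of all 6 lists differed in which remodeler was high. For comparison across antibodies, each library's maximum density was ranked among the 10442 such regions of the genome. In the type I window chr11:99002436-99003464 had densities of 187 and 39.2 for Brg1, with 43.0 and 31.6 for CHD4 and 31.9 and 16.3 for Snf2h. Its percentiles were 97.5 and 72.8, 92.9 and 95.9, and 84.0 and 20.5, so CHD4 was high in both libraries and the 2 Snf2h libraries disagreed. In contrast, chr11:100156468-100157157, only 690 bp wide, had 31.3 and 19.6 for Brg1, with 26.7 and 17.0 for CHD4 and 66.5 and 69.3 for Snf2h. Its percentiles were 28.4 and 44.6 for Brg1, with 70.4 and 67.5 for CHD4 and 99.1 and 91.9 for Snf2h, and it was the tallest Snf2h region of the type I window in both libraries.

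Nearby, chr11:100159075-100160741 had Snf2h percentiles of 88.1 and 64.9, against 20.5 and 46.2 for Brg1 and 37.8 and 19.6 for CHD4. At chr11:100143650-100144467 the percentiles were 78.2 and 64.05 for Snf2h, 57.4 and 68.6 for CHD4 and 23.1 and 16.5 for Brg1. At each of these 3 neighbouring regions both Brg1 libraries thus stood below both Snf2h libraries. The pattern was the opposite at chr11:99520149-99521171, with densities of 119 and 57.4 for Brg1, with 21.5 and 12.8 for CHD4 and 14.5 and 15.6 for Snf2h. There Brg1 stood at percentiles 89.6 and 85.5, CHD4 at 55.1 and 45.5 and Snf2h at 19.996 and 18.9. Snf2h also had the highest mean percentile at chr11:99435228-99435961 (79.5) and chr11:99010984-99011771 (62.3), where both Brg1 libraries again stood below both Snf2h libraries. At chr11:99981386-99982483 Brg1 had the highest mean (63.8), and its libraries, at 58.4 and 69.3, lay between those of Snf2h, at 81.9 and 35.6.

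Among the 15 type II regions with all 6 lists, the 2 with the highest mean Brg1 percentile also had the highest mean CHD4 percentiles. At chr15:101284984-101286856 the densities were 191 and 101 for Brg1, with 59.3 and 30.6 for CHD4 and 22.2 and 31.4 for Snf2h, and at chr15:101198943-101202027 they were 162 and 94.2, 63.4 and 29.9, and 22.2 and 33.6. Brg1 and CHD4 stood at or above percentile 94.8 at both places, and Snf2h stood between 57.1 and 61.1. At chr15:101211832-101213809 the mean percentiles were 83.5 for Brg1, 86.2 for CHD4 and 69.2 for Snf2h. Snf2h led instead at chr15:101113500-101114773, with densities of 56.1 and 139 and percentiles of 97.9 and 99.4, while Brg1 had 39.4 and 22.8 and percentiles of 40.1 and 51.5. It also led at chr15:101050574-101052823, with percentiles of 92.7 and 90.1 against 30.1 and 32.6 for Brg1, and at chr15:101327460-101328164, with 92.3 and 89.0 against 55.2 and 54.0. The type II window thus held places of opposite order, Brg1 and CHD4 above Snf2h or the reverse. At chr15:101303209-101303961 Brg1 alone was high, at percentiles 80.8 and 81.0, with CHD4 at 52.8 and 20.9 and Snf2h at 47.0 and 41.7.

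Counted over the 25 regions, Snf2h had the highest mean percentile at 15 (7 of 10 in the type I window and 8 of 15 in the type II window), CHD4 at 6 and Brg1 at 4. Over all 10442 regions with all 6 lists, the shares were 42.2% for Snf2h, 21.3% for CHD4 and 36.5% for Brg1. The window shares were 60.0%, 24.0% and 16.0%. Each mean is over 2 libraries. Both libraries of an antibody were the 2 highest of the 6 at 10 regions for Snf2h, 3 for CHD4 and 2 for Brg1. Over all 10442 regions the shares by that stricter rule were 21.6%, 5.91% and 16.8%. No counting interval was computed for the 25 regions, so no lead of Snf2h beyond its genome share was established. Across the 25 regions the heights of the 2 Brg1 libraries had a Spearman correlation of 0.86, the CHD4 libraries of 0.78 and the Snf2h libraries of 0.51, against 0.77, 0.72 and 0.65 over all such regions. Between antibodies the mean of the 4 library pairs was 0.51 for Brg1 with CHD4, 0.20 for CHD4 with Snf2h and -0.25 (from -0.28 to -0.18) for Brg1 with Snf2h, against 0.59, 0.39 and 0.11 over all. These correlations are across regions within the same libraries and are a description only.

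**Figure D4:**
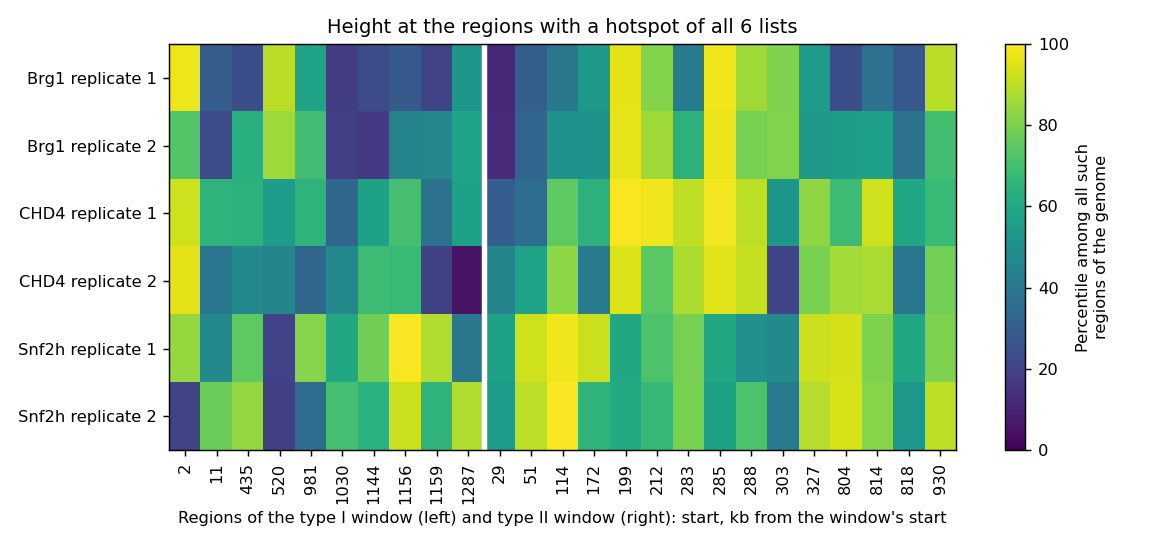
Percentile of maximum tag density of each library at the 25 regions with a hotspot of all 6 lists, ranked among all 10442 such regions of the genome, with regions labelled by distance from the start of their window. Columns in which Brg1 and CHD4 are bright and Snf2h is not, such as those at 199 and 285 kb of the type II window, occur in the same window as columns of the reverse order, such as 114 kb.

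Of the replicated regions of 1 remodeler with no hotspot of another, Brg1 had 6 in each window, Snf2h had 1 in the type I window and none in the type II window, and CHD4 had none in either. Such regions made up 1.6% of all merged regions in the genome for Brg1, with 0.149% for CHD4 and 0.133% for Snf2h. The Brg1 shares were 2.28% (95% Wilson interval 1.05% to 4.89%) in the type I window and 2.71% (1.25% to 5.80%) in the type II window, so the background lay within both intervals. The tallest was chr15:101921525-101922293, with Brg1 densities of 78.8 and 24.2, at percentiles 95.3 and 95.01 of their lists. The others named by the rule for such regions were lower. They were chr15:101811308-101811776 (23.2 and 9.33), chr11:99385454-99386039 (22.0 and 9.33) and chr11:99391233-99391738 (23.7 and 5.85). The Snf2h region, chr11:99057308-99057747, had densities of 15.9 and 13.7, at percentiles 58.9 and 61.8. The tallest region of Brg1 alone was thus near the top of its lists. The other named Brg1 regions stood at percentiles 67.4 to 70.3 in replicate 1 and 75.6 to 84.6 in replicate 2. Snf2h alone had 1 region, close to the middle of its lists, too few to contrast the remodelers.

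The hotspots were not spread evenly along either window. In both, a central stretch of 400 kb, from 500 to 900 kb in the type I window and from 400 to 800 kb in the type II window, held few replicated or shared regions. These stretches, chr11:99500000-99900000 and chr15:101400000-101800000, were chosen after seeing the data, so their contrast with the remainder is a description. In the type I stretch the hotspot density was 39.1% and 66.9% of that in the rest of the genome for Brg1, with 48.6% and 70.3% for CHD4 and 19.9% and 40.3% for Snf2h, and all 6 libraries were below the genome. In the type II stretch it was 89.4% and 124% for Brg1, with 16.2% and 96.7% for CHD4 and 0 and 56.4% for Snf2h. Brg1 and CHD4 replicate 2 were therefore near the genome there, while CHD4 replicate 1 had 1 hotspot and Snf2h replicate 1 had none. In the remainder of the windows every library was above the genome, at 110% to 238% of its density for type I and 150% to 454% for type II.

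What remained in the central stretches was mostly of a single list, 43 of 54 regions in type I (79.6%) and 75 of 91 in type II (82.4%), against 76.6% of all merged regions. The median height percentile there ran from 26.4 to 57.4 across libraries in type I. In type II it ran from 27.1 to 54.5 in the libraries with a hotspot there. These medians were below those of the remainder of the same window, and most were near the middle of their lists. All 3 remodelers, in either library, met in 3 of 54 type I regions there (5.56%) against 34 of 209 outside (16.3%). In type II it was 3 of 91 (3.30%) against 42 of 130 (32.3%), and over all merged regions of the genome 7.42%. Any replicated antibody was present in 4 of 54 (7.41%) against 52 of 209 (24.9%), and in 8 of 91 (8.79%) against 54 of 130 (41.5%). Over all merged regions of the genome, 88.5% held no replicated antibody. A hotspot of all 6 lists marked 1 region in the type I stretch, the Brg1-led chr11:99520149-99521171 described above, and none of the 15 in type II. That was 1.85% of the regions in the type I stretch, against 1.96% of all merged regions. In both stretches these shares were thus closer to those of the genome than to those of the remainder of the same window. In type II all 8 replicated regions of the stretch held replicated Brg1, and 1 of them, chr15:101602962-101603601, also held replicated CHD4. The tallest of the 8 was chr15:101546001-101546722, with Brg1 densities of 84.5 and 32.3, a CHD4 density of 8.90 in replicate 2 and an Snf2h density of 15.4 in replicate 2. The central stretches thus kept some Brg1, and in type II no replicated Snf2h. The number of merged regions there rested on the low-threshold lists. It was 30 of 54 in type I without CHD4 replicate 2, and in type II it was 59 of 91 when Brg1 replicate 2 was left out and 60 when CHD4 replicate 2 was. The 3 regions with all 3 remodelers rested on Snf2h replicate 2, without which 1 was left in type I and 0 in type II.

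**Figure D5:**
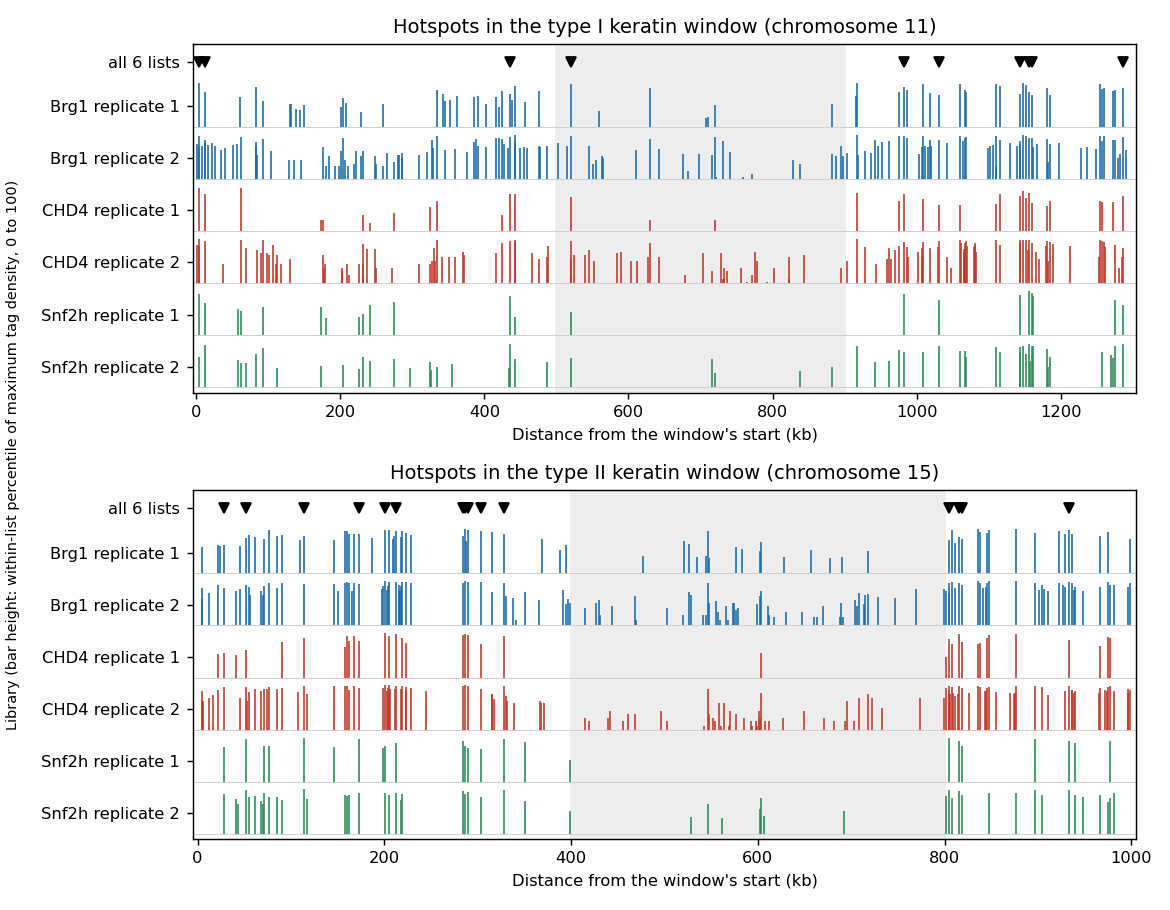
Hotspots of the 6 lists along each keratin window, as distance from the window's start in kb, with bar height as the within-list percentile of maximum tag density and triangles at regions with a hotspot of all 6 lists. The shaded 400 kb stretches, chosen after seeing the data, hold 1 triangle of 10 in the type I window and 0 of 15 in the type II window.

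The regions with all 6 lists fell into 2 blocks in each window. In the type I window 4 lay before and 6 after a gap of 460 kb (chr11:99521172-99981385), and in the type II window 11 lay before and 4 after a gap of 476 kb (chr15:101328165-101803799). Replicated Snf2h had the longest empty stretches, 460 kb in type I and 405 kb in type II. The longest without replicated CHD4 were 287 and 275 kb, and those without replicated Brg1 were 162 and 131 kb. Snf2h had the fewest replicated regions of the 3 remodelers, which by itself lengthens its gaps. The longest stretches with no region of any replicated antibody were 162, 109 and 89.6 kb in type I and 127, 114 and 82.7 kb in type II. All 6 lay wholly or nearly wholly within the central stretches. Counting hotspots of any list, the longest empty stretches were only 38.5, 33.1 and 22.027 kb in type I and 38.4, 29.1 and 25.4 kb in type II, and the longest one in type II, chr15:101244746-101283193, lay outside the central stretch.

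At 100 kb resolution, the fullest part of the type I window was from 1100 to 1200 kb, with 77 hotspots over the 6 lists, 10 regions with all 3 remodelers and 3 regions with all 6 lists. The emptiest parts, from 600 to 700 kb and from 800 to 900 kb, held 14 hotspots each and no region with all 3 remodelers. In the type II window the parts from 800 to 900 kb and from 900 to 1000 kb held 74 and 73 hotspots, and those from 400 to 500 kb and from 700 to 800 kb held 17 and 18. Between those thin parts, the stretch from 500 to 600 kb held 48 hotspots in 36 merged regions, the most merged regions of any type II part, of which 1 held all 3 remodelers. The type I window was thus thin in the middle in all 6 lists. In the middle of the type II window, density was 89.4% and 124% of that in the rest of the genome for Brg1. CHD4 replicate 2 stood at 96.7% there. CHD4 replicate 1 (16.2%) and the Snf2h libraries (0 and 56.4%) were thin there, and shared regions were few.

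The borders of the windows were set by coordinates. The last region before the type I window, chr11:98998742-98999303, held Brg1 (13.1) and CHD4 (6.18) in replicate 2, and the first inside, chr11:99000508-99000987, held the same libraries (7.43 and 6.92). At the other end the last inside, chr11:100291152-100291468, held Brg1 replicate 2 (4.43), and the next outside, chr11:100319581-100319832, held CHD4 replicate 2 (4.2006), with no hotspot of any list between them. For type II, chr15:100994163-100995243 before the window held replicate 2 of Brg1, CHD4 and Snf2h (17.9, 6.92 and 18.0). The first inside, chr15:101004035-101004532, held both Brg1 libraries (18.5 and 8.86) and CHD4 replicate 2 (6.92). At the far end, chr15:101997651-101998593 inside held both Brg1 libraries (30.1 and 31.9) and CHD4 replicate 2 (7.66). The region just outside, chr15:102008583-102009201, held 5 lists, all but CHD4 replicate 1. The type II borders thus cut through ground with replicated hotspots.

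The last comparison asked whether 1 remodeler was denser than another over both windows together, each relative to its own list. The log2 ratio to the rest of the genome was 0.53 and 0.36 for Brg1, with 1.15 and 0.16 for CHD4 and 0.74 and 0.76 for Snf2h. Snf2h lay above both Brg1 libraries, and the CHD4 libraries lay on either side of all others. The mean difference was -0.21 for Brg1 minus CHD4, -0.30 for Brg1 minus Snf2h and -0.09 for CHD4 minus Snf2h. The exact permutation p-values were 1, 0.333 and 1 (adjusted p = 1 for each of the 3 pairs), and 2 against 2 libraries cannot go below 0.333. The sign of each difference changed with lists of equal size, which gave 0.17, 0.45 and 0.28 (log2), so no order of the remodelers over the keratin windows was established.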

How the data were processed

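The submitters' processing notes name CASAVA 1.6 and the mm9 build. The immunoprecipitation method, hotspot caller, thresholds and use of inputs were, for this series, not given in the sources used here. Sample titles call the libraries ChIP-Seq, while their extraction text describes DNase I treatment of nuclei from lines with induced dominant-negative proteins. The lists are therefore taken as ChIP from the titles and antibody labels. Each library has a hotspot list of its own. The deposited lists give maximum and average tag density (a signal of unstated scaling), a Z score and a p-value per hotspot, per the file headers, and the p-values were not used. Nothing in the density lists gives read depth, so it is unknown and no interval rests on it.

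Intervals were read as closed and analysed with Python 3.11.15, numpy 2.4.6, pandas 2.3.3 and scipy 1.17.1. Density and height were compared with the 19 autosomes and X outside both windows, by exact sign-flip permutation tests over 6 libraries, adjusted by Benjamini-Hochberg over 6 tests. The 3 antibody pairs were compared by exact permutation. Code was tested on simulated data. Alternatives were a common Z score of 9.49, lists of equal size (32310), the same chromosome as background, average density or Z score as height, merging at 50% of the shorter interval, a replicate block and leaving out each library. The alternatives of leaving out both low-threshold lists and of joining Z score ranks with the same chromosome were added after seeing the data.

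In each window the regions named are the 6 of highest mean percentile with all 6 lists, the 2 tallest replicated regions of each antibody alone, the region where each antibody most exceeds the others, the 3 longest empty stretches of each kind and the border regions. The tallest region per library, the tallest region of a central stretch, the broadest region and the single central region with replicated CHD4 in type II were named after their values were seen. The members and lists were chosen with earlier results of these data known. Promoter overlap had been planned and needs an mm9 annotation, which was not used here.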

Additional observations from a re-analysis of the deposited data

How the results depend on the processing

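Leaving out each library in turn gave type I densities of 0.29 to 0.47 (log2), type II densities of 0.75 to 0.97 and type I minus type II differences of -0.54 to -0.45. Heights ran from 20.8 to 22.3 percentile points for type I, 33.3 to 35.3 for type II and -13.8 to -11.6 for type I minus type II. None of these passed, and 5 libraries cannot give an exact permutation p below 0.0625. The type I density, which had not passed with all 6 libraries either, reached that p only without CHD4 replicate 2. Without any other library its exact permutation p was 0.125. The type I density passed at a common Z score (0.69), and the cause was not tested. It also passed with lists of equal size (1.04), a cut by height that favours places with tall hotspots. The type I height lost its call with lists of equal size (8.36) and against its own chromosome (3.30), and the causes were not tested. Ranked by Z score, heights were 5.91 for type I, 10.2 for type II and -4.24 for their difference, and with the same chromosome as background too, an alternative chosen after seeing the data, they were 1.86, 9.86 and -8.00. None of these 6 values passed, and the cause was not tested. Without both low-threshold lists, also chosen after seeing the data, densities were 0.52, 1.09 and -0.57 and heights 21.3, 35.7 and -14.5, which 4 libraries cannot bring below an adjusted p of 0.125. The share of regions with all 3 remodelers was 31.9% at a common Z score, 44.6% with lists of equal size and 26.5% without the low-threshold lists, and the replicated share 10.4%, 15.1% and 11.5%. Leaving out a library gave 8.03% to 17.9% and 5.29% to 10.3%. Of the 25 named regions, 16 kept their number of lists at a common Z score and 17 with lists of equal size.

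The differences between antibodies had no stable sign. With lists of equal size they were 0.17 for Brg1 minus CHD4, 0.45 for Brg1 minus Snf2h and 0.28 for CHD4 minus Snf2h. CHD4 minus Snf2h was 0.32 at a common Z score and 0.41 without the low-threshold lists. Leaving out each library gave -0.71 to 0.29 for Brg1 minus CHD4, which was 0.29 without CHD4 replicate 1. It gave -0.39 to -0.22 for Brg1 minus Snf2h, and -0.59 to 0.41 for CHD4 minus Snf2h, which was 0.41 without CHD4 replicate 2. With the replicate number as a block the differences stayed -0.21, -0.30 and -0.09, with exact permutation p-values of 1, 0.5 and 1. With 2 pairs such a test cannot go below 0.5, and no label says that a number marks a shared batch, so the pairing was not used. Read depth is unknown, so a place without a hotspot may hold a weaker signal that these lists do not record.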
